A study of Mus musculus with 31 samples.

Results

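The channels described here are 8 mouse genes that encode ion channels opened by acid or by force on the membrane. They were chosen by name from 55536 annotated genes, and all 8 were found in the count tables. Asic1, Asic2 and Asic3 encode acid-sensing subunits, Piezo1 and Piezo2 encode large mechanically gated cation channels, and Tmem63a, Tmem63b and Tmem63c encode the vertebrate relatives of the plant OSCA osmosensors. The study sequenced RNA bound to tagged ribosomes in sensory neurons of the dorsal root ganglia (DRG). Nav1.8-Cre;L10a-eGFP-fl/fl mice make the ribosomal protein L10a fused to green fluorescent protein in cells where Cre, driven by the sodium channel Nav1.8 (the product of Scn10a), has acted, and the tag is used to purify their ribosomes with the RNA on them (TRAP). Libraries from these mice are called Cre libraries. Controls were L10a-eGFP-fl/fl mice, which carry the same floxed tag and no Cre, so their libraries hold the RNA that the purification recovers without a tag. Central axon libraries came from lumbar dorsal root with spinal cord (4 Cre, 4 control, batch 1). Peripheral axon libraries came from sciatic nerve (4 Cre, 3 control, batch 2). Soma libraries came from lumbar DRG in batch 1 (4 Cre, 4 control) and batch 2 (4 Cre, 4 control), 31 libraries in all. Age, sex, strain and any pooling of animals are not given in the sources used here. The tissues also hold glia, vessels, connective tissue and, for the central axons, spinal cord neurons. Nav1.8-lineage cells are mostly nociceptors and include some low-threshold neurons, so a Cre library is not 1 neuron type.

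Acid-sensing ion channels assemble as trimers and let sodium enter when the fluid outside the cell becomes acidic. ASIC3 is known as the form typical of sensory neurons, where it responds to the mild acidity of inflamed or poorly perfused tissue, while ASIC1 and ASIC2 are also widespread in the brain and spinal cord. Piezo proteins are trimers that open when the membrane is stretched: PIEZO2 is the main transducer of light touch and limb position in DRG neurons, and PIEZO1 is best known from blood vessels and other non-neuronal cells. TMEM63 proteins respond to high membrane tension and to changes in osmolarity.

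Because the 3 families arose by gene duplication, the stretches in which relatives are identical show how far a short sequencing read could be shared between them. The longest identical coding stretch between any pair within a family was 32 bases, between Asic1 and Asic2, and it lies in exon 2 of both transcripts. It is shown with 18 bases on each side, and capitals mark the identical bases. Both sequences are from the GENCODE M21 transcripts (GRCm38), 5′ to 3′ on the gene's own strand, at chr15:99694769-99694836 (plus strand) and chr11:80971472-80971539 (minus strand).
Asic1: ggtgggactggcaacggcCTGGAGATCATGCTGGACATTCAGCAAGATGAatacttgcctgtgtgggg
Asic2: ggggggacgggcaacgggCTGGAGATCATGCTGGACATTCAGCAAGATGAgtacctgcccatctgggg
Asic1 and Asic3 shared at most 15 bases, Asic2 and Asic3 14, Piezo1 and Piezo2 17, Tmem63a and Tmem63c 14, and Tmem63b and Tmem63c 15. No stretch of 50 bases in any of the 8 genes occurred in another of them.

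Overlap with neighbouring genes was larger than overlap between relatives. Piezo1 shares 24.57% of its exon bases with Ctu2, a gene of transfer RNA modification on the opposite strand, and 22.7% of its 50-base stretches also occur in Ctu2. Tmem63b overlaps Gm16172 and Mrpl14 on the opposite strand over 7.729% of its exon bases, and Tmem63a overlaps 2210411M09Rik over 3.495%. How the counting treated strand is not given in the sources used here, so reads from these overlaps cannot be told apart, and the values of Piezo1 above all are uncertain to that extent. The other 5 genes overlap no annotated exon of another gene.

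The libraries held between 3.60 and 19.6 M counts, M standing for mega. Levels are given as CPM, the counts of a gene per M counts of the library. The limit that a count of 0 allows was set at 3 counts, which is 0.153 to 0.833 CPM depending on the library. Scn10a did not overlap between central axon Cre libraries (45.1 to 421 CPM) and their controls (0 to 29.9 CPM). It overlapped between Cre and control in the other 3 tissues, and controls of both soma batches reached 598 CPM or more. Rpl10a, whose protein carries the tag, overlapped between Cre and control in all 4 tissues. This gene checks the labels weakly, since the endogenous copy is counted too. Of the 15 controls, 11 correlated better across genes (mean Spearman's rho) with the Cre libraries of their tissue than with their own group, and 0 of the 16 Cre libraries did so with the controls. Batch 2 soma control 5 had 18.1 M counts, against at most 4.52 M in the other batch 2 soma controls, and was the control of its group that correlated best with the Cre somas (0.918). Peripheral axon Cre library 2 had 15058971 counts, against 4097863 to 5768003 in the others of its group. It was the highest of its group in Scn10a (304 CPM, against 42.1 to 156 CPM), Asic1, Asic2, Asic3, Piezo2, Tmem63b and Tmem63c. Batch 1 soma control 3 had a composition scaling factor of 0.0547, against 1.30 to 1.78 in the other libraries of that comparison. A column name shared by 2 batch 1 soma controls left them without replicate numbers, and they are called a and b.

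None of the 8 channels passed the test between Cre and control libraries in any tissue, and 3 passed between axon and soma Cre libraries. Called means an adjusted p under 0.05 over all genes tested (edgeR quasi-likelihood test, Benjamini-Hochberg). Between Cre and control, 0 of 6 tested channels were called in central axons, where 0.0141% of all tested genes were called, and 0 of 8 in peripheral axons, where 0% were. The soma counts were 0 of 7 in batch 1 (4.42% of all genes) and 0 of 8 in batch 2 (0%). At an unadjusted p under 0.05 there was 1 channel in central axons (Piezo2, against 4.82% of all genes), 0 in peripheral axons (3.68%), 2 in batch 1 somas (Tmem63a and Tmem63c, against 1752 of 11667 genes) and 1 in batch 2 somas (Piezo2, 16.4%). DESeq2 called 0, 0, 3 and 0 channels in those 4 comparisons, against 1.53%, 0.193%, 16.1% and 7.59% of all genes. The 3 were Tmem63a, Tmem63c and Piezo2. Between axon and soma, 1 of 7 tested channels was called for central axons (13.7% of all genes) and 2 of 8 for peripheral axons (31.2%). The median log2 fold change of the tested channels was -0.64 for central axon over soma, against 0.05 over all genes, and -0.77 for peripheral axon over soma, against -0.03. Axons and somas were different tissue collections, and in such bulk samples fewer labelled cells or axons and less RNA in each cannot be told apart.

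**Figure D1:**
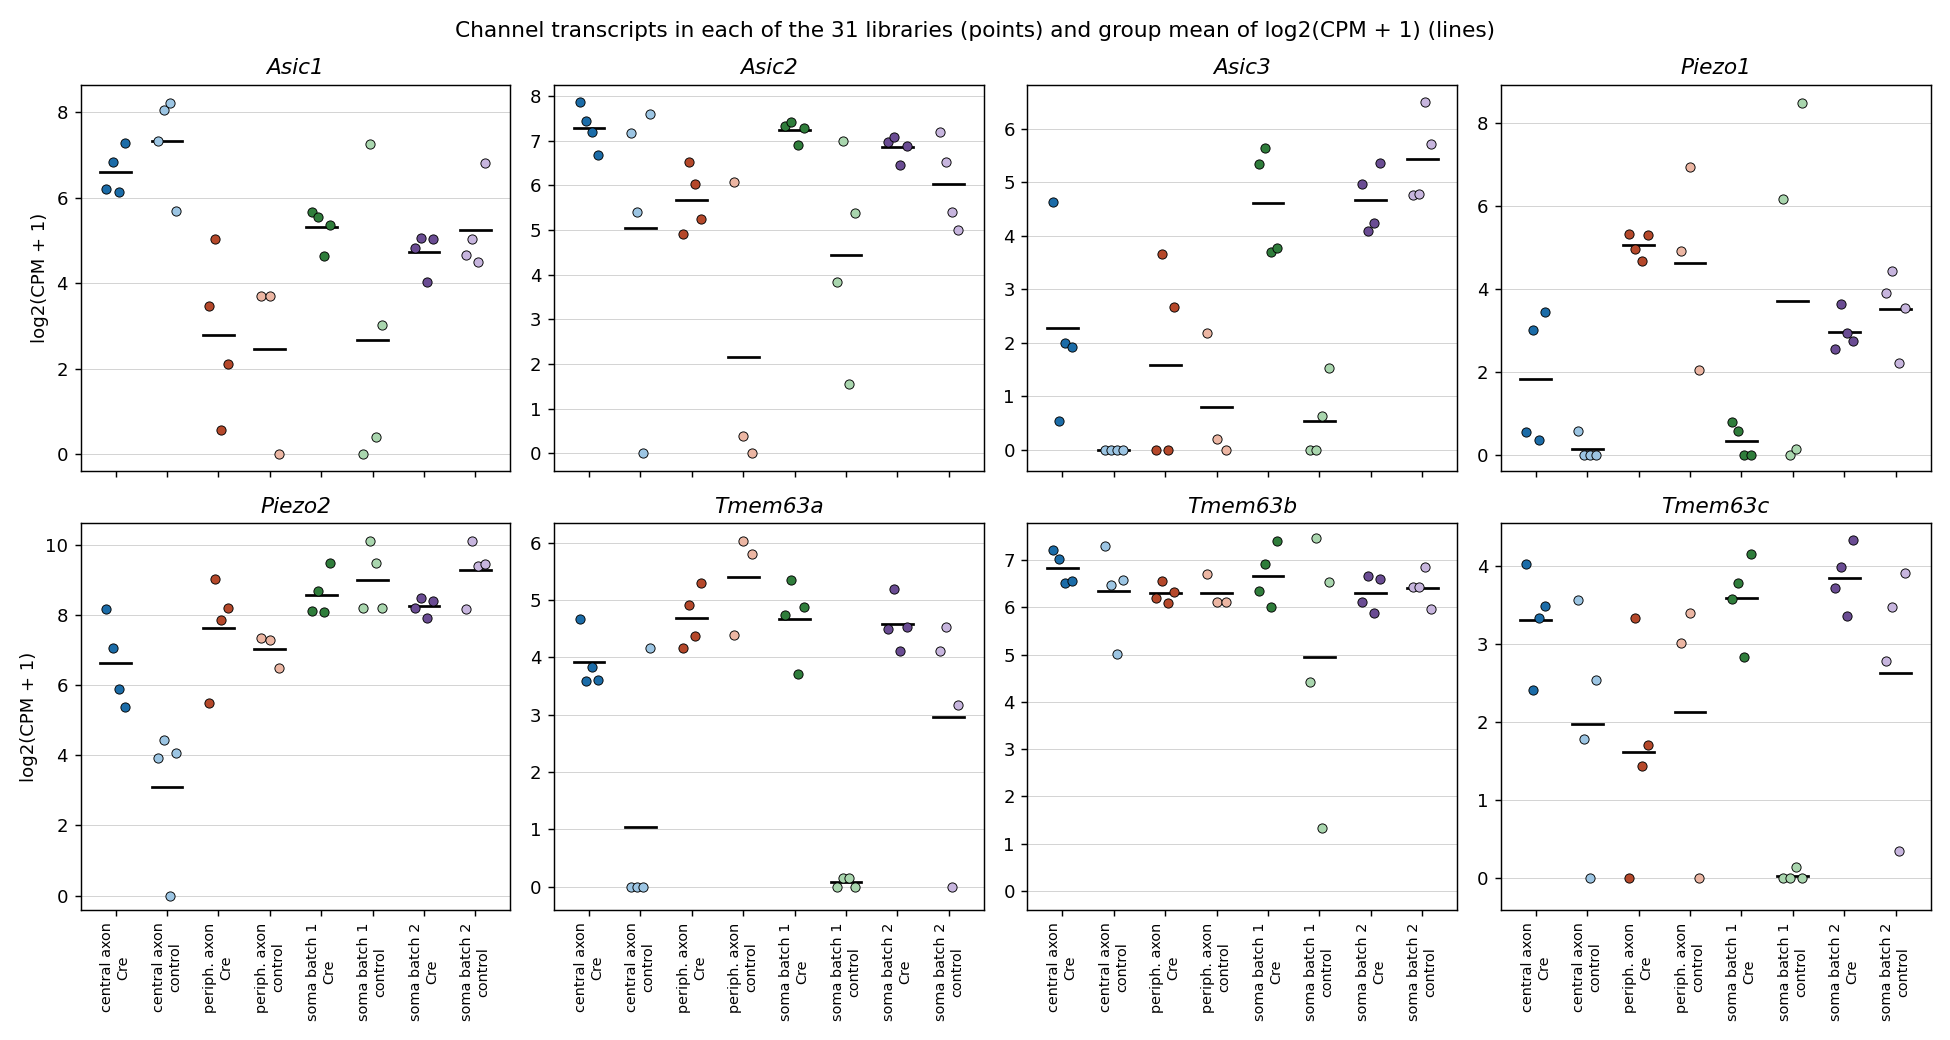
Level of each channel, log2(CPM + 1), in the 31 libraries by group. Points are libraries and lines are group means of the plotted values. Tmem63b sits at a like level in nearly all libraries, Asic1 is high in both central axon groups, and Tmem63a and Tmem63c lie near 0 in the batch 1 soma controls.

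Asic1 (ENSMUSG00000023017, chromosome 15, 99670368 to 99701130, plus strand) encodes the subunit with the broadest expression in the central nervous system. It was at 71.9, 113, 68.9 and 154 CPM in the 4 central axon Cre libraries and at 49.9, 45.6, 23.9 and 40.1 CPM in the batch 1 Cre somas. All 4 central axon libraries lay above all 4 somas. The means were 102 ± 39.99 and 39.9 ± 11.4 CPM (SD, n = 4 each), a log2 fold change of 0.89 (SE 0.33) that missed the threshold (edgeR adjusted p = 0.0904). It passed in 2 of 14 alternative fits, with scaling by library size alone (1.36, adjusted p = 0.0220) and with DESeq2 (0.94, adjusted p = 0.0456). Of all genes tested, 21.0% were higher in central axon without overlap, so this separation is not rare. Central axon controls 1, 2 and 3, at 159, 264 and 297 CPM, lay above all 4 Cre libraries, and control 4, at 50.8 CPM, lay below all of them. The difference between Cre and control was -0.88 (SE 0.53) on the log2 scale (edgeR adjusted p = 1.00). The summed level of 9 spinal cord neuron markers, such as Gad1 and Slc32a1, was 203 to 575 CPM in the central axon Cre libraries and 411 to 1175 CPM in their controls. In the batch 1 Cre somas that sum was 1.66 to 9.53 CPM, with Gad2, Slc32a1, Slc6a5 and Chat at 0 in all 4. The part of spinal cord neurons in the Asic1 level was not tested.

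In peripheral axons Asic1 was low. It was at 9.97, 31.8, 0.488 and 3.29 CPM in the Cre libraries and at 27.3, 32.1, 15.4 and 31.4 CPM in the batch 2 Cre somas. The groups overlapped through the second peripheral library, the deepest of its group and the highest in Scn10a. The log2 fold change was -1.36 (SE 0.83, edgeR adjusted p = 0.231). Without that library it was -2.90, and Asic1 was then called. The peripheral controls had 11.9, 12.02 and 0 CPM. Relative to soma, Asic1 in central axons exceeded Asic1 in peripheral axons by 2.41 on the log2 scale (SE 0.91, edgeR adjusted p = 0.0847), and 0 of 8 channels were called in this difference of differences, against 13.1% of all genes. DESeq2 called 1 channel there, Asic1, and 19.7% of all genes.

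Asic2 (ENSMUSG00000020704, chromosome 11, 80880169 to 81968457, minus strand) encodes a subunit that is little activated by acid on its own and tunes channels it forms with the others. Per length it was the most abundant ASIC in all 4 Cre groups: 38.1 ± 12.7 CPM per kilobase of exon in central axons, 12.96 ± 6.64 in peripheral axons, and 35.5 ± 5.18 and 27.1 ± 4.77 in the batch 1 and batch 2 somas (n = 4 each). It fell in peripheral axons relative to soma. The Cre libraries held 28.9, 91.2, 64.2 and 36.8 CPM in peripheral axon and 124, 134, 86.9 and 118 CPM in soma. Of the peripheral libraries, 3 lay below all somas, and the second overlapped with the lowest soma. The log2 fold change was -1.21 (SE 0.38, edgeR adjusted p = 0.0323). The call was lost in 4 of 8 fits that left out 1 library (without peripheral axon library 4, adjusted p = 0.0684, and without soma libraries 5, 6 and 8, adjusted p = 0.0628, 0.0713 and 0.0678) and when all batch 2 groups shared the fit (adjusted p = 0.450). All fits kept the direction, and 12.5% of all genes were called lower in this comparison. Scn10a was lower there too, at 155 ± 110 CPM in peripheral axon and 364 ± 52.3 CPM in soma. Its log2 fold change was -1.39 (SE 0.49, edgeR adjusted p = 0.0492), called in 5 of 13 alternative fits. The 10 general neuronal markers, such as Snap25, had median sums of 7844 CPM in peripheral axon and 23584 CPM in soma Cre libraries. The part of these differences in the Asic2 level was not tested.

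In central axons Asic2 was at 231, 172, 145 and 101 CPM and in the batch 1 Cre somas at 160, 170, 119 and 155 CPM. These ranges overlap. The log2 fold change of -0.30 (SE 0.33, edgeR adjusted p = 0.590) turned to 0.11 under scaling by library size alone. The controls scattered widely: 143, 41.5, 0 and 191 CPM in central axon and 66.9, 0.308 and 0 CPM in peripheral axon. Batch 1 soma controls held 13.4, 127, 1.94 and 41.0 CPM, and 3 of 4 Cre somas lay above all of them. The log2 fold change of Cre over control there was 1.13 (SE 1.05, edgeR adjusted p = 0.592). Batch 2 soma controls held 145, 91.0, 41.7 and 31 CPM, and the library at 145 CPM is control 5, the deepest of these controls. Without it Asic2 was higher in Cre somas than in controls by 1.38 on the log2 scale (edgeR adjusted p = 0.0483), against 0.82 (SE 0.45, adjusted p = 0.397) with all libraries. The fit without control 5 called 1826 genes, against 0 with all libraries.

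Asic3 (ENSMUSG00000038276, chromosome 5, 24413392 to 24417835, plus strand), the sensory neuron subunit, had higher means in both groups of Cre somas than in either group of axon Cre libraries, but was not called in either comparison. In Cre somas it was at 39.7, 48.8, 11.9 and 12.6 CPM in batch 1 and at 30.3, 15.9, 17.8 and 39.8 CPM in batch 2. Central axon Cre libraries held 23.6, 0.448, 2.98 and 2.78 CPM, and peripheral axon Cre libraries 0, 11.6, 0 and 5.37 CPM. All 4 peripheral libraries and 3 of 4 central libraries were below all somas of their batch. The log2 fold changes of axon over soma were -2.23 (SE 0.94, edgeR adjusted p = 0.132) for central and -2.70 (SE 1.06, edgeR adjusted p = 0.0731) for peripheral axons, both short of the threshold. In the peripheral comparison 2481 of the 15467 genes tested were lower in axon without overlap. The central value passed the threshold in 4 of 14 alternative fits: without the low-count filter (adjusted p = 0.0313), with DESeq2 (0.0415), with the replicate block (0.0348) and without central axon library 1, where it was -4.37 (0.00522). The peripheral value passed in 3 of 13, without the filter (0.0336) and without peripheral axon library 1 (0.0373) or 2 (0.0230).

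Asic3 had 0 counts in all 4 central axon controls. The mean of the Cre libraries, 7.45 CPM, was at least 22.9-fold higher than the mean limit of 0.326 CPM that 3 counts per control library allow. Most of this came from library 1, with 250 counts (23.6 CPM, Wilson 95% interval 20.8 to 26.7), against 5, 33 and 29 counts in the others. The gene was too low in too many libraries to enter the test there. Peripheral axon controls held 3.52, 0.154 and 0 CPM, which overlapped with their Cre libraries (log2 fold change 1.91, SE 2.36, not called by edgeR). Batch 1 soma controls held 0, 0, 0.539 and 1.88 CPM, all below the Cre somas (log2 change 2.87, SE 2.18, edgeR adjusted p = 0.511). Of all genes tested in that comparison, 28.0% were higher in Cre without overlap. Batch 2 soma controls went the other way, with 26.2, 26.4, 88.9 and 51.6 CPM, 2 of them above all Cre somas, and the log2 fold change was -0.61 (SE 0.49, adjusted p = 0.575).

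The make-up of the ASIC family is given here per length, as a description. Asic1 made up 31.6 ± 15.1% of the ASIC signal per kilobase in central axon Cre libraries, 10.9 ± 9.57% in peripheral axons, and 12.8 ± 1.57% and 10.7 ± 1.67% in the 2 soma batches (n = 4 each). Asic3 made up 19.9 ± 9.36% and 24.9 ± 7.54% in the somas, 4.47 ± 5.61% in central and 8.62 ± 10.1% in peripheral axons. The shares in axons varied widely between libraries, that of Asic3 from 0.307% to 12.7% in central and from 0% to 19.4% in peripheral axons. No test was run on these shares.

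**Figure D2:**
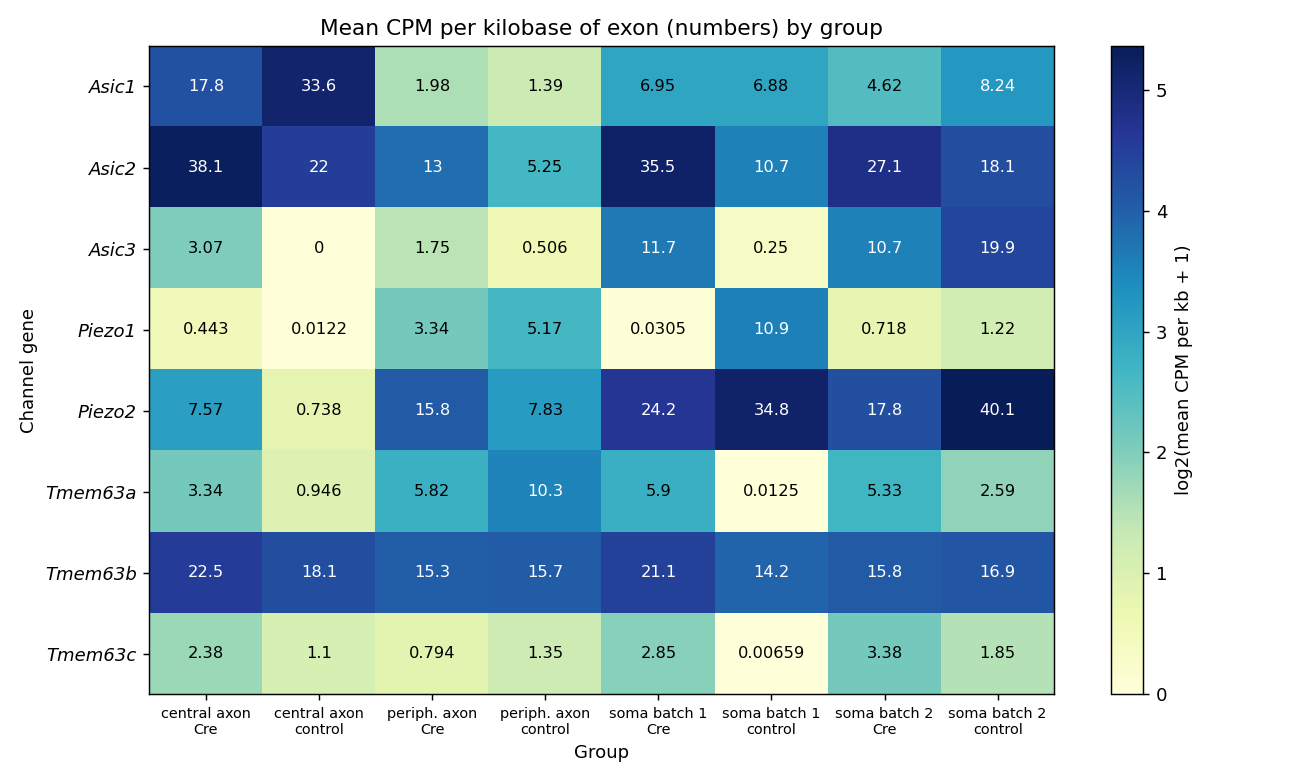
Mean CPM per kilobase of exon for each channel (rows) in each group (columns), on a log2 colour scale with the values printed. Among Cre groups, Asic2 leads in central axons (38.1) and in both somas (35.5 and 27.1), and Piezo2 (15.8) and Tmem63b (15.3) are the highest in peripheral axons.

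Piezo2 (ENSMUSG00000041482, chromosome 18, 63010213 to 63387183, minus strand), the touch transducer, fell in central axon libraries relative to soma. It was at 289, 132, 57.8 and 40.8 CPM in central axon Cre libraries and at 273, 411, 269 and 708 CPM in the batch 1 Cre somas. Of the central libraries, 3 lay below all somas, and library 1 reached into the soma range. The means were 130 ± 113 and 415 ± 206 CPM (SD, n = 4 each) and the log2 fold change was -1.999 (SE 0.58, edgeR adjusted p = 0.0383). For comparison, 5.11% of all genes were called lower here. The direction held in all 14 alternative fits, but only 5 kept the call. It was lost in all fits that left out 1 library other than central axon library 1 (adjusted p 0.0525 to 0.107), under scaling by library size alone (-1.67, adjusted p = 0.0548) and with all batch 1 groups in the fit (adjusted p = 1.00). Without central axon library 1 the value was -2.97 (adjusted p = 0.00331). Scn10a showed a like pattern in these libraries, at 421, 105, 123 and 45.1 CPM in central axon and 312 to 505 CPM in soma, a log2 fold change of -1.57 (SE 0.58, edgeR adjusted p = 0.0869).

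Central axon controls held little Piezo2: 14.1, 20.7, 0 and 15.9 CPM, all below the Cre libraries. The log2 fold change of Cre over control was 3.48 (SE 1.25), with an unadjusted p of 0.0180 in the edgeR fit over all genes and an adjusted p of 0.735. It stayed between 2.61 and 3.76 when 1 library at a time was left out. Without overlap, 6.82% of all tested genes were higher in Cre there. The 8 nociceptor markers, Scn10a among them, summed to 713 to 3074 CPM in the Cre libraries and to 98.7 to 402 CPM in the controls, with Scn11a and Trpv1 at 0 in all 4 controls.

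In peripheral axons Piezo2 was as high as in soma within the spread of the libraries. The Cre libraries were at 43.5, 517, 228 and 293 CPM and the batch 2 Cre somas at 293, 353, 240 and 338 CPM, a log2 fold change of -0.33 (SE 0.55, edgeR adjusted p = 0.674). The difference between the axon types, each relative to soma, was -1.52 (SE 0.85, edgeR adjusted p = 0.250). The sciatic nerve controls held 160, 154 and 89.5 CPM, inside the range of the Cre libraries (log2 change 1.10, SE 0.69, adjusted p = 1.00). Of the Cre libraries, 3 lay above all controls, and library 1 lay below them. Without library 1 the log2 change was 1.45, also not called. Scn10a was lower in peripheral axon than in soma Cre libraries, as given with Asic2.

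Soma controls held at least as much Piezo2 as Cre somas. In batch 2 the controls were at 284, 1094, 675 and 701 CPM, and 3 of 4 lay above all Cre somas. The log2 fold change of Cre over control was -0.90 (SE 0.36, unadjusted p in the fit over all genes 0.0287, edgeR adjusted p = 0.245), and -1.13 (adjusted p = 0.0268) without control 5, the control at 284 CPM. Without control 5 the fit called 1826 genes, against 0 with all libraries. The summed markers of large-diameter mechanoreceptors (Ntrk2, Ntrk3, Pvalb and 5 others) were 313 to 1463 CPM in these controls and 201 to 256 CPM in the Cre somas. Their part in the Piezo2 level was not tested. In batch 1 the controls were at 290, 1098, 711 and 292 CPM, overlapping with the Cre somas. There the fitted value was -3.81 (SE 1.95, edgeR adjusted p = 0.357) with control 3 and -0.65 without it, the control with the scaling factor of 0.0547. DESeq2 called Piezo2 lower in these Cre somas (adjusted p = 0.0420), where it called 16.1% of all genes. That was the only call of Piezo2 among 14 alternative fits of this comparison.

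Piezo1 (ENSMUSG00000014444, chromosome 8, 122481698 to 122551329, minus strand) rose in peripheral axon libraries relative to soma. It was at 39.4, 30.2, 24.6 and 38.3 CPM in the Cre sciatic nerve libraries and at 4.81, 11.4, 6.62 and 5.72 CPM in the batch 2 Cre somas. All 4 axon libraries lay above all 4 somas, and the share of all genes separated in this way is not given here. The means were 33.1 ± 6.99 and 7.13 ± 2.92 CPM (SD, n = 4 each), and the log2 fold change was 1.99 (SE 0.40, edgeR adjusted p = 0.00360). The call held in 12 of 13 alternative fits, including all 8 that left out 1 library (1.79 to 2.26), and was lost with all batch 2 groups in the fit (1.84, adjusted p = 0.184). Of all genes, 18.7% were called higher in this comparison, and 12.5% lower. Between the axon types, each relative to soma, the difference was 1.46 towards central axons and not called (SE 1.32, edgeR adjusted p = 0.499). The size of this value is uncertain, since it rests on batch 1 Cre somas with 7, 5, 0 and 0 counts. Central axon against soma alone left Piezo1 below the filter for testing.

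The controls of the same nerve held Piezo1 too, at 29.0, 122 and 3.14 CPM, so Cre and control overlapped (log2 change -0.70, SE 0.94, edgeR adjusted p = 1.00). The sign turned when control 2 was left out (1.17). Endothelial markers (7 genes, such as Pecam1 and Cdh5) summed to 76.1 to 151 CPM in the peripheral Cre libraries, 103 to 202 CPM in their controls and 6.06 to 15.3 CPM in the batch 2 Cre somas. Fibroblast markers summed to 3816 to 6686 CPM, 5224 to 19577 CPM and 173 to 364 CPM in the same 3 groups. No endothelial or fibroblast marker was at 0 throughout any of these groups. The part of these cells in the Piezo1 level was not tested. Ctu2, which overlaps Piezo1, was at 44.9 to 55.0 CPM in the peripheral Cre libraries and 50.6 to 78.5 CPM in the somas, so it did not share the rise (log2 change -0.54, SE 0.25, edgeR adjusted p = 0.122). Among the peripheral controls, however, Ctu2 ran with Piezo1, at 52.8, 155 and 1.18 CPM.

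In batch 1 Piezo1 was close to the detection limit in most Cre libraries. Central axons held 0.472, 7.00, 0.271 and 9.86 CPM, from 5, 78, 3 and 103 counts. Batch 1 Cre somas held 0.725, 0.487, 0 and 0 CPM. Both batch 1 comparisons between Cre libraries and controls, and central axon against soma, left Piezo1 below the filter for testing. The batch 1 soma controls differed among themselves from 0 to 361 CPM: 70.9 in control 1, 0 in control a, 0.108 in control 3 and 361 (Wilson 95% interval 348 to 374) in control b. Ctu2 did not run with it there, being at 48.6 CPM in control b and at 800 CPM in control 3. Central axon controls held 6 Piezo1 counts, all in control 1.

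Across the 8 groups ordered by their mean, neighbouring groups overlapped in range at every step for Asic1, Asic2, Asic3 and the 3 Tmem63 genes. For Piezo1 the break lay between peripheral axon Cre libraries (24.6 to 39.4 CPM) and the next group, batch 2 soma controls (3.61 to 20.5 CPM). For Piezo2 it lay between central axon Cre libraries and their controls, the lowest 2 groups. Within the Piezo family, Piezo2 made up 99.8 ± 0.217% and 96.1 ± 1.25% of the signal per kilobase in the batch 1 and batch 2 Cre somas, 90.3 ± 13.7% in central axons and 73.9 ± 23.6% in peripheral axons (n = 4 each). In peripheral axon library 1 the share of Piezo1 reached 61.0%, the only Cre library in which Piezo1 exceeded Piezo2 by length.

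**Figure D3:**
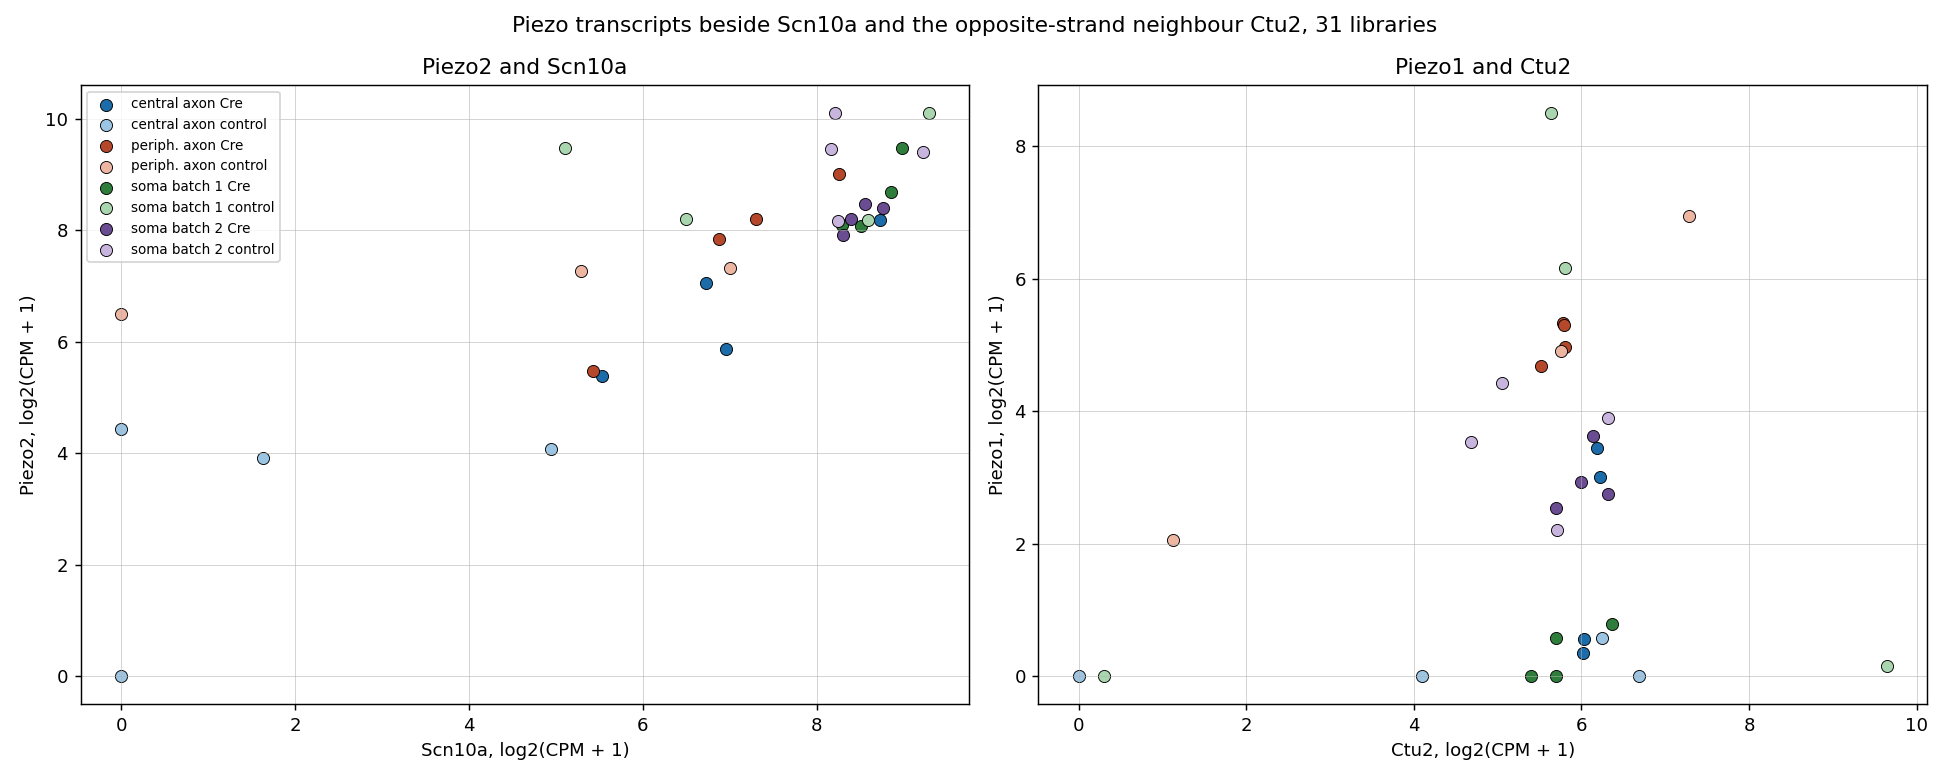
Piezo2 against Scn10a (left) and Piezo1 against Ctu2 (right), log2(CPM + 1), 31 libraries coloured by group. Piezo2 runs with Scn10a over the libraries (Pearson r 0.79), while Piezo1 varies widely among libraries of near-equal Ctu2 (r 0.21).

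Tmem63b (ENSMUSG00000036026, chromosome 17, 45660171 to 45686905, minus strand) was the most even of the 8 channels, with group means between 72.5 and 115 CPM. Its level was 147, 128, 89.98 and 93.6 CPM in the Cre libraries of central axon, 72.5, 92.6, 67.6 and 79.6 CPM in peripheral axons, 80.7, 119, 62.9 and 167 CPM in batch 1 and 68.1, 100, 57.6 and 95.6 CPM in batch 2 Cre somas. The 4 Cre groups overlapped. The log2 fold change of axon over soma was -0.29 (SE 0.34, edgeR adjusted p = 0.607) for central axons, and it turned to 0.10 when libraries were scaled by size alone. It was -0.23 (SE 0.26, edgeR adjusted p = 0.522) for peripheral axons. Controls held like amounts, at 31.2 to 157 CPM in central axon, 67.8 to 103 CPM in peripheral axon and 61.3 to 114 CPM in batch 2 soma. The batch 1 soma controls were the exception, with 20.5, 176, 1.51 and 92.1 CPM. Per length Tmem63b made up 64.5 ± 1.64% to 79.9 ± 5.37% of the Tmem63 family in the 4 Cre groups.

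Tmem63a (ENSMUSG00000026519, chromosome 1, 180942344 to 180975112, plus strand) was at 24.4, 11.03, 13.3 and 11.2 CPM in central axon Cre libraries and at 25.6, 39.9, 12.2 and 28.3 CPM in the batch 1 Cre somas. The groups overlapped, and the log2 fold change of -1.19 (SE 0.46, edgeR adjusted p = 0.105) missed the threshold. Peripheral axon and batch 2 soma Cre libraries had near-equal means of 26.1 ± 9.76 and 23.9 ± 8.22 CPM (n = 4 each), with a log2 fold change of -0.06 (SE 0.38, adjusted p = 0.920) that turned to 0.13 under scaling by library size alone. Sciatic nerve controls held 20.0, 64.6 and 54.6 CPM, the highest group mean of this gene, and 2 of the 4 Cre libraries lay below all 3 controls. The change from control was -0.78 (SE 0.67, adjusted p = 1.00). The tests named here are edgeR's, and none of these fits with all libraries called Tmem63a. Of 14 alternative fits of central axon against soma, 1 called it, a fit that left out 1 library (edgeR adjusted p = 0.0259).

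The batch 1 soma controls lacked almost all Tmem63a and Tmem63c. Tmem63a had 2 counts in the 4 controls together and 1012 in the 4 Cre somas, a pooled ratio of 439 (95% interval 121 to 3633, counting error only). Tmem63c (ENSMUSG00000034145, chromosome 12, 87021340 to 87090043, plus strand) had 1 count against 434, a ratio of 377 (67.3 to 14920). All Cre somas lay above all controls for both genes, as for 28.0% of all genes tested. The edgeR adjusted p was 0.280 for each, and 0.00719 (Tmem63a) and 0.00703 (Tmem63c) without control 3. Without control 3 the fit called 3094 genes, against 516 with all libraries. DESeq2 called both, with adjusted p of 1.87e-04 and 6.27e-04. These controls had 4934 to 7889 genes with at least 10 counts, against 12502 to 14015 in the Cre somas, and the part of that difference in the 2 genes was not tested. In batch 2 the soma controls held both genes, Tmem63a at 16.4, 22.2, 0 and 7.97 CPM and Tmem63c at 5.86, 10.1, 0.278 and 13.95 CPM. Control 7, the library lowest in both, also had the fewest counts of its group. The batch 2 changes of Cre over control were 1.27 (SE 0.95, edgeR adjusted p = 0.543) for Tmem63a and 1.11 (SE 0.88, edgeR adjusted p = 0.572) for Tmem63c.

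Tmem63c was the least abundant of its family in all 4 Cre groups by length. It was at 15.3, 4.31, 9.04 and 10.2 CPM in central axons and at 10.9, 12.8, 6.13 and 16.8 CPM in the batch 1 Cre somas, ranges that overlap (log2 change -0.64, SE 0.55, edgeR adjusted p = 0.475). In peripheral axons it was at 0, 9.03, 1.71 and 2.25 CPM, below all 4 batch 2 Cre somas at 12.2, 14.8, 9.27 and 19.1 CPM, a separation shared by 2481 of the 15467 genes tested. That difference of -2.17 (SE 0.92) also missed the threshold (edgeR adjusted p = 0.0946) and passed it in 3 of 13 alternative fits. Central axon controls held 10.8, 2.43, 0 and 4.81 CPM and peripheral controls 7.04, 9.56 and 0 CPM, both overlapping with their Cre libraries. Tmem63a in the central axon controls was 0 in 3 libraries and 16.99 CPM in control 4, and the fitted change of Cre over control of 1.85 (SE 2.11, edgeR adjusted p = 1.00) rests on that library: without it no control had a count.

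**Figure D4:**
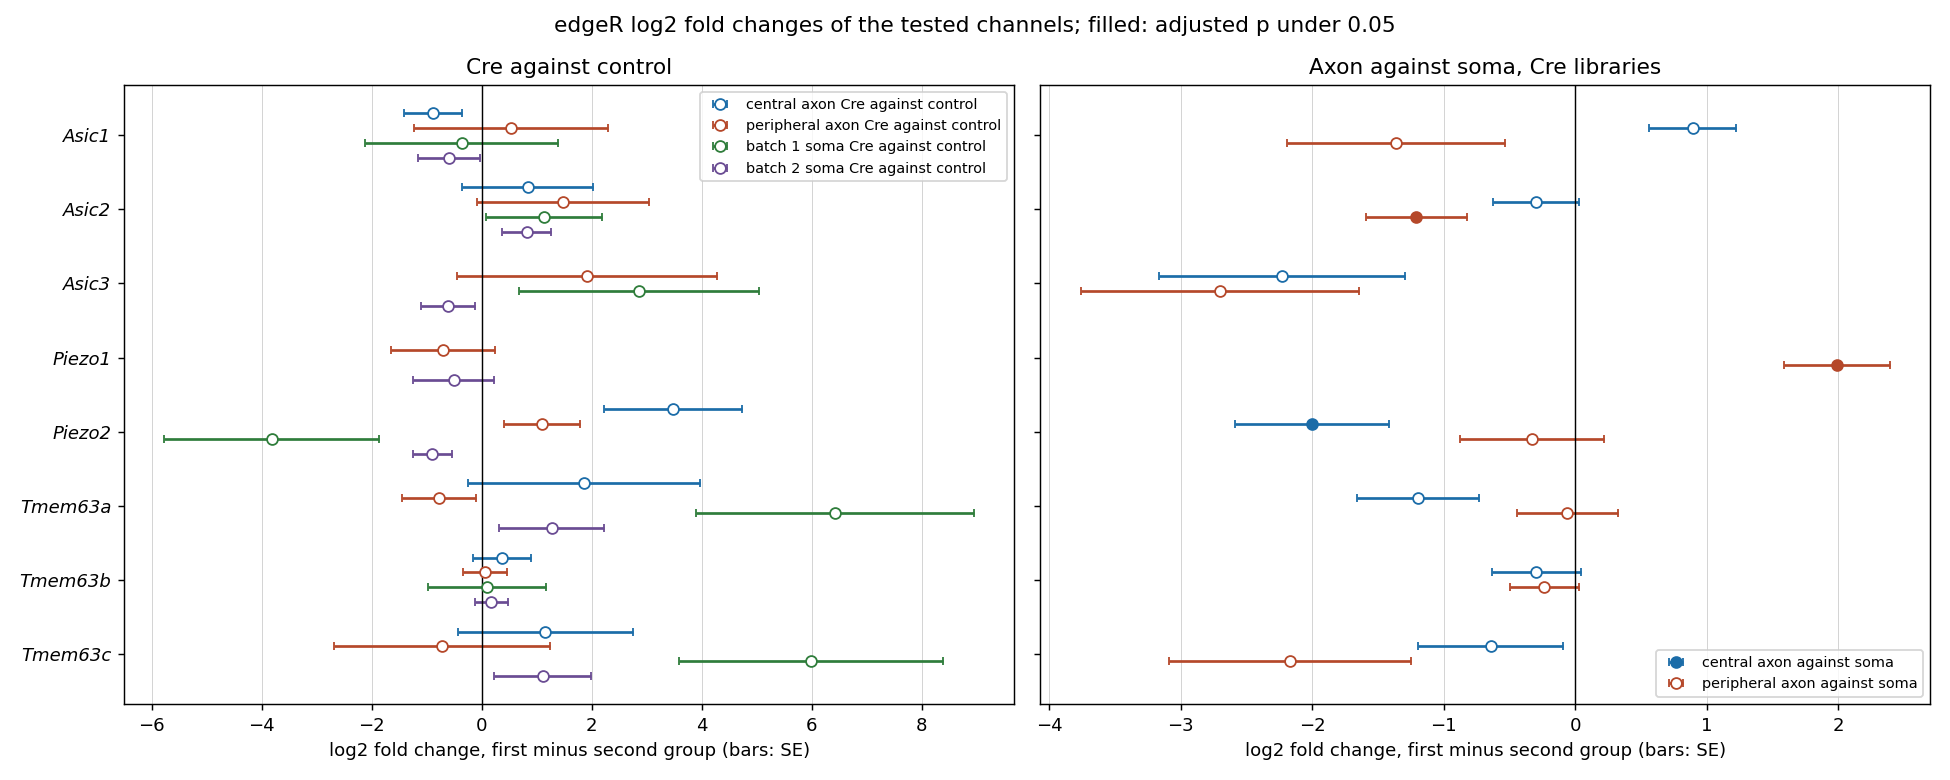
edgeR log2 fold changes (points) with SE (bars) for the tested channels: Cre over control in 4 tissues (left) and axon over soma among Cre libraries (right). Filled points passed an adjusted p of 0.05: Asic2 and Piezo1 in peripheral axons and Piezo2 in central axons.

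Other genes of acid sensing, a list of 21 with proton-gated channels, proton-sensing receptors, acid-sensitive potassium channels and ASIC partners, were read in the same fits. None was called between Cre and control in any tissue. In central axon over soma 6 of 13 tested were called (13.7% of all genes were), 4 higher and 2 lower, and the median log2 fold change was 0.22, against 0.05 over all genes. The higher ones included the acid-sensitive leak potassium channels Kcnk9 (46.2 ± 29.2 against 2.49 ± 2.21 CPM, log2 change 3.81, SE 0.77, edgeR adjusted p = 0.00801) and Kcnk3 (51.5 ± 30.9 against 9.81 ± 5.05 CPM, 1.95, SE 0.49, adjusted p = 0.0200). Asic4, a relative of the ASICs that acid does not open on its own, and Kcnk1 also rose. Beside these rises, the spinal cord neuron markers given with Asic1 summed to 203 to 575 CPM in central axon and 1.66 to 9.53 CPM in soma Cre libraries, and 6 astrocyte markers to 296 to 1347 and 1.98 to 32.0 CPM. No astrocyte marker was at 0 throughout either group, and the part of these cells was not tested. The capsaicin receptor Trpv1, which is on the nociceptor marker list as well, fell from 39.8 ± 15.4 to 19.8 ± 6.71 CPM (-1.39, SE 0.40, adjusted p = 0.0349), and so did S100a10, a calcium-binding protein that helps carry channels to the membrane. All of these calls but that of Kcnk9 were lost in 5 or more of 14 alternative fits, and Kcnk9 kept it in 13. The median of all genes moved by 0.44 under scaling by library size alone in this comparison, and the split of all calls went from 1250 higher and 740 lower to 2146 and 293.

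In peripheral axon over soma 3 of 12 tested acid-sensing genes were called, where 31.2% of all genes were. Kcnk1 rose from 2.33 ± 0.605 to 43.5 ± 65.5 CPM (log2 change 3.88, SE 0.88, edgeR adjusted p = 0.00644), with an SD above its mean in axons. Stoml1, a stomatin relative that modulates ASICs, fell from 144 ± 27.2 to 42.5 ± 24.99 CPM (log2 change -1.96, SE 0.41, edgeR adjusted p = 0.00459). S100a10 fell as well, and its call was kept in 7 of 13 alternative fits. The list's median was -0.49, against -0.03 over all genes. Of 13 tested in the difference between axon types, only Asic4 was called (13.1% of all genes were). Asic4 shares 18.1% of its exon bases with Gm37264 on the other strand and Kcnk1 8.01% with Gm45875.

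The force-sensing list of 21 genes, with further channels and with partners of PIEZO and hair-cell channels, was read in the same way. In peripheral axon over soma 10 of 14 tested genes were called (31.2% of all genes were), 7 higher and 3 lower, with a median of 0.62 against -0.03 over all genes. The PIEZO auxiliary subunit Mdfic rose from 0.537 ± 0.235 to 25.1 ± 10.6 CPM (log2 change 5.31, SE 0.59, edgeR adjusted p = 1.02e-04). The stretch-activated potassium channel Kcnk2 rose from 7.52 ± 2.54 to 75.7 ± 32.7 CPM (3.11, SE 0.37, adjusted p = 1.44e-04), and the polycystins Pkd2 and Pkd1, Mtmr2 and Tmem87a rose as well. Those that fell were Anxa6 (508 ± 28.8 to 230 ± 93.8 CPM), Lhfpl5, a part of the hair-cell transduction complex, and Kcnk10. The calls of Tmem87a and Lhfpl5 were each kept in 5 of 13 alternative fits, and that of Kcnk10 in 6. The fibroblast and endothelial sums given beside Piezo1 were also higher in these peripheral libraries than in the somas, and their part in the list's changes was not tested.

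In central axon over soma 2 of 14 tested force-sensing genes were called (13.7% of all genes were), both higher: Pkd1 (70.6 ± 27.6 against 4.72 ± 5.10 CPM, log2 change 3.47, SE 0.85, edgeR adjusted p = 0.0185) and Tmie, a hair-cell transduction protein, at 15.3 ± 4.77 CPM with at most 3 counts in any soma library (adjusted p = 0.00180). The spinal cord neuron and astrocyte sums given beside Kcnk9 were higher in these central libraries as well, and their part was not tested. In the difference between axon types 3 of 16 were called (13.1% of all genes were): Tmie was higher in central axons, and Kcnk2 (-2.93, SE 0.74, edgeR adjusted p = 0.0140) and Trpv4 were lower. Trpv4 had at most 1 count in a central axon library, so no fold is given, and its call was kept in 7 of 19 alternative fits. No gene of this list was called between Cre and control. Kcnk2 shares 12.2% of its exon bases with A430027H14Rik and Tmie 7.89% with Als2cl, each on the other strand.

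As a description, the 2 genes whose log2(CPM + 1) ran closest to each channel over all 31 libraries were found among 16525 genes. The libraries share tissue and batch, so these values describe the whole set of groups. Asic1 ran closest to Susd4 and Trim62 (Pearson r 0.92 and 0.91), Asic2 to Peg13 and Reep1 (0.87 and 0.87), and Asic3 to Htr3a and Rasef (0.87 and 0.86). Piezo2 ran closest to Fstl1 and Nrn1 (0.90 and 0.88), and Piezo1 to Tstd2 and Fstl3 (0.83 and 0.79), the lowest values of the 8. Tmem63a ran closest to Atf7 and Hint3 (0.91 and 0.91), Tmem63b to Cadm1 and Mapre1 (0.90 and 0.89), and Tmem63c to Cmpk2 and Slc46a1 (0.92 and 0.89). No channel was among the closest 2 genes of another channel. Between channels the highest values were 0.59 for Tmem63a with Tmem63c and for Asic2 with Tmem63b, and the lowest was -0.47 for Asic1 with Piezo1.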

How the data were processed

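The authors deposited 1 table of raw read counts per gene for each batch. Per the submitters' processing notes, STAR 2.7.2b and the mm10 build were used. The counting program and its use of strand are not given in the sources used here. Libraries were made with the SMART-Seq v4 kit, per the labels' protocols. All 55536 gene identifiers matched GENCODE M21, and no column was left out. Levels are CPM of the library total. Tests used edgeR 4.0.16 in R 4.3.3 (filterByExpr with its minimum count of 10, TMM, quasi-likelihood) on the groups compared, with Benjamini-Hochberg adjustment over all genes. DESeq2 1.42.0 was an alternative. The code was tested on simulated data. The libraries are labelled biological replicates. No replicate pair agreed within sampling noise. Without molecular identifiers, intervals and limits cover counting error only. The 8 channels and the gene lists were chosen with earlier results of these data known. Genes named are the channels, Scn10a and Rpl10a, called list members (up to 6 per direction) and the 2 closest genes of each channel. Ctu2 was added after its overlap was seen. A further shared stretch is not reported here.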

Additional observations from a re-analysis of the deposited data

Results flagged for a closer look

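Single libraries stood apart from their group in 7 of the 55 sets of 4 libraries checked, where the gap of the highest or lowest library to its neighbour took up most of the group's range. Chance gives about 1 in 20, but in 3 of the 7 the other 3 libraries were all at 0, where any count at all sets the library apart, so the 7 cannot be read against that rate. Asic1 was at 150.6 CPM in batch 1 soma control a, against 0 to 7.14 CPM in the other controls, and at 111.8 CPM in batch 2 soma control 8, against 21.4 to 31.8 CPM. Central axon Cre library 1 was high in Asic3 (23.6 CPM, others at most 2.98) and in Tmem63a (24.4 CPM, others at most 13.3), and was also the highest of its group in Scn10a (421 CPM) and Piezo2 (289 CPM). Tmem63a was at 16.99 CPM in central axon control 4 and 0 in the other 3. Piezo1 was at 0.485 CPM in central axon control 1, from 6 counts, and 0 in the others. Tmem63c was at 0.108 CPM in batch 1 soma control 3, from 1 count, below the limit of 3 counts, and 0 in the others.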

How the results depend on the processing

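Of 758 alternative fits of single channels, 682 kept direction and side of the threshold, 28 passed it newly, 15 lost it and 33 turned sign. The cause was not tested. Of 64 group means, 62 moved by less than 1 SD under TMM-normalised CPM. Low counts limit Asic3, Piezo1 and Tmem63c most.

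Genes called between Cre and control numbered 2 (central axon), 0 (peripheral axon), 516 (batch 1 soma) and 0 (batch 2 soma), with 684, 514, 1752 and 2503 at an unadjusted p under 0.05. DESeq2 called 217, 27, 1878 and 1159. A fit over all groups of a batch gave 1, 1, 2114 and 175. Without the low-count filter there were 34, 1700 and 162 in central axon and in batch 1 and batch 2 soma. Library size alone gave 2244 and 257 in the 2 soma batches, and RLE scaling gave 21 in batch 2. Leaving out 1 library gave 0 to 5 in central axon, 0 to 3094 in batch 1 soma (3094 without control 3) and 0 to 1826 in batch 2 soma (1826 without control 5). Central axon against soma called 1990 genes, 3143 with DESeq2, 15 with all groups in one fit and 822 to 2717 with 1 library left out. Peripheral axon against soma called 4818, 1404 with all groups in one fit and 3220 to 6055 with 1 library left out. The difference between axon types called 2187, 3290 with DESeq2 and 1394 to 2856 with 1 library left out. The median of all genes moved by at most 0.81 under library size alone (batch 1 soma).

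Channels called in batch 1 soma numbered 2 with library size alone, 1 without the filter, 3 with DESeq2, 3 with all groups in one fit and 0 to 2 with 1 library left out. In batch 2 soma they numbered 0 to 2 with 1 library left out. In central axon against soma they numbered 2 without the filter, 3 with DESeq2, 0 with all groups in one fit and 0 to 3 with 1 library left out. In peripheral axon against soma they numbered 0 with all groups in one fit and 1 to 5 with 1 library left out. The fits with 1 library left out called 3220 to 6055 of all genes there. In the difference between axon types they numbered 1 without the filter, 1 with DESeq2 and 0 to 1 with 1 library left out. For the fits without the filter in this comparison and in central axon against soma, the share of all genes called is not given here.

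Same-numbered libraries were not treated as pairs in the main fits, and correlations of their deviations ran from -0.13 to 0.21. In central axon against soma the mean was 0.12 for same numbers and -0.04 for others. There 2 of 4 central axon libraries correlated best with the soma of their own number. So few pairs cannot show whether same-numbered libraries share animals. With the replicate block, genes called were 1 (central axon Cre against control) and 0 (batch 1 soma), 2 channels were called in central axon against soma (Piezo2 and Asic3), and Piezo1 in peripheral axon Cre against control (0.60) and Asic1 in batch 1 soma (5.72) turned sign. Peripheral axons and somas share no numbers.

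Other signs turned for uncalled channels. Library size alone gave Tmem63b -0.0331 in peripheral axon and -0.11 in batch 2 soma Cre against control, Asic1 0.00303 in batch 1 soma, Asic2 0.11 and Tmem63b 0.10 in central axon against soma, and Tmem63a 0.13 in peripheral axon against soma. RLE and DESeq2 gave Tmem63b -0.17 and -0.17 in batch 1 soma and -0.0104 and -0.0109 in the difference between axon types. All groups in one fit gave Asic2 0.000334 and Tmem63b 0.00304 in central axon against soma. With 1 library left out, peripheral Cre against control ran from -0.89 to 1.09 for Asic1, -1.25 to 1.17 for Piezo1, -0.10 to 0.26 for Tmem63b and -2.03 to 0.0775 for Tmem63c. Batch 1 soma ran from -0.82 to 2.94 for Asic1 and -0.23 to 0.92 for Tmem63b, and batch 2 soma from -0.83 to 0.32 for Asic1. Tmem63a ran from -0.34 to 0.16 in peripheral axon against soma, and Asic3 from -1.40 to 1.92 and Tmem63b from -0.17 to 0.35 in the difference between axon types.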
